A study of Mus musculus with 6 samples.

Results

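Erythroid genes other than the globins were followed in neonatal mouse kidney and ureter: Alas2, Epb42, Ahsp, Klf1, Hemgn, Gata1, Tfrc and Epor. Members were the rows of the deposited gene table whose symbol is 1 of these 8 names, and 7 of the 8 had a row among 24532 genes. Ahsp had none and was not analysed here. The globin genes themselves were left out, because near-identical copies can exchange reads. RNA was sequenced in bulk at postnatal day 1 (PN1) from Ahnak KO and WT mice. There were 2 libraries of Ahnak KO kidney, 2 of WT kidney, 1 of Ahnak KO ureter and 1 of WT ureter. The KO disrupts an exon of Ahnak in the whole animal, no other allele or treatment was given in any group, and several kidneys or ureters were taken for RNA. Sample titles call the ureter libraries kidney, while their source field says ureter, and that field was followed.

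Red blood cells mature from progenitors under erythropoietin, whose receptor Epor keeps them alive. Tfrc, the transferrin receptor, brings in iron. GATA1 and KLF1 are transcription factors that switch on the genes of the red cell, among them Alas2, the erythroid enzyme that begins heme synthesis, Epb42, a protein of the red cell membrane skeleton, and Hemgn, a nuclear protein of erythroid progenitors. At birth erythropoiesis takes place mainly in liver and spleen and is moving to bone marrow, and young red cells in the circulation still carry globin and Alas2 mRNA. Tfrc and Epor are not confined to the lineage. Tfrc is carried by dividing cells of many kinds, and Epor by endothelial and other cells. In bulk RNA, fewer cells of a type and less RNA per cell cannot be told apart.

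The promoters are shown because GATA1 and KLF1 act on the other members through short words in such DNA, and because Epb42 and Epor were the members that differed between the tissues. All 7 genes matched the RefSeq promoter table of GRCm38.p6. The 250 bases before the annotated start were searched on both strands for the GATA word AGATAA, which could also begin with T or end with G, and for the KLF word CCNCNCCC, and matches are in capitals. No GATA match overlapped a KLF match in the sequences printed here.
Epor: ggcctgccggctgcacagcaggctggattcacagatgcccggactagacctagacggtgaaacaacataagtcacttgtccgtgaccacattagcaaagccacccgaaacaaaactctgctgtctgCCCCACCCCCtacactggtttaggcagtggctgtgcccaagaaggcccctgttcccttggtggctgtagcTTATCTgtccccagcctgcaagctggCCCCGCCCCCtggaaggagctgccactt
Epb42: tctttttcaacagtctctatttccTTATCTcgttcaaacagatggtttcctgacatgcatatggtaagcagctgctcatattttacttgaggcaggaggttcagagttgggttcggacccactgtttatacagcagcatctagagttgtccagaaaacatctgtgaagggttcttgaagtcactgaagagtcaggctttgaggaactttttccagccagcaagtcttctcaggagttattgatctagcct
Klf1: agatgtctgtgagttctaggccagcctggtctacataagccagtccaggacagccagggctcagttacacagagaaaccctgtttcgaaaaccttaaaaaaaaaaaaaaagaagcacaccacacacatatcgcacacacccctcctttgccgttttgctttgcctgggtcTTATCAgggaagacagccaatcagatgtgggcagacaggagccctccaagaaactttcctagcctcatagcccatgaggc
Alas2: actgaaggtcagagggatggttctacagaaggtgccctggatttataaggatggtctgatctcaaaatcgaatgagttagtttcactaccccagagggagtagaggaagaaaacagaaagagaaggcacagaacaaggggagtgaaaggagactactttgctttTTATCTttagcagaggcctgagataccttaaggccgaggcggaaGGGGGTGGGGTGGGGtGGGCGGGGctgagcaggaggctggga
Epor (gene number 13857) has its window at chr9:21963577-21963826 on the minus strand, with a GATA match at 54 to 49 bases before the start. That of Epb42 (13828) is chr2:121036878-121037127 on the minus strand, with a match at 226 to 221 bases. That of Klf1 (16596) is chr8:84901732-84901981 on the plus strand, with a match at 80 to 75 bases. That of Alas2 (11656) is chrX:150547167-150547416 on the plus strand, with a match at 86 to 81 bases. A GATA word was also found in Hemgn, and so in 5 of the 7 genes, while 26.5% of 32851 windows in the table held 1. A KLF word was found in Alas2, Hemgn, Gata1, Tfrc and Epor, against 45.9% of windows, and both kinds in Alas2, Hemgn and Epor, against 8.19%. These matches describe letters only. The other members are Hemgn (93966) at chr4:46393989-46404183, Gata1 (14460) at chrX:7959260-7976663 and Tfrc (22042) at chr16:32608896-32632794. All 7 are annotated as protein-coding, and the table gives 1 value per gene and library.

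Total counts were 55744703 to 66095616 in the kidney libraries, 36410246 in Ahnak KO ureter and 54985927 in WT ureter. Ahnak, the disrupted gene, gave 148 and 139 CPM (counts scaled by the total count) in KO kidneys against 198 and 203 in WT kidneys, and 519 in KO ureter against 681 in WT ureter. The tissue labels were checked with markers. Their CPM, like all CPM below unless stated, was also scaled by edgeR's TMM factors, which adjust the total counts. Of 8 kidney markers, 6 were at 0 in each ureter library, and the summed level of the 8 was 1451 to 1783 CPM in kidneys against 0.467 and 1.67 in ureters. The 8 ureter markers summed to 388 to 478 CPM in kidneys and to 11522 and 11544 in ureters. Precursor ribosomal RNA (Rn45s) took 8.06% of counts in KO ureter and 0.496% to 0.632% elsewhere. The Xist transcript had 176348 counts in KO kidney 1 and 17 to 36 in the other libraries. Alas2 and Gata1 lie on the X chromosome. The part of this difference in their values, or in those of the other members, was not tested. Genes listed at 0 numbered 8530 and 8291 in the ureters and 6415 to 7755 in the kidneys.

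The members spanned a wide range of levels. By TPM (the authors' value, scaled for length and depth), Tfrc came first in kidney at 61.0 ± 23.0 TPM (SD, n = 4), followed by Alas2 at 12.9 ± 5.10 and Epor at 11.4 ± 2.72, whose ranges overlapped. Klf1 lay at 1.3 ± 0.0801 TPM and Epb42 at 0.459 ± 0.203. Hemgn at 0.0954 ± 0.0871 and Gata1 at 0.0607 ± 0.0883 were the lowest and did not differ beyond their spread, and the lowest Epb42 library, at 0.178 TPM, lay within their ranges. In ureter Tfrc was at 29.0 ± 21.4 TPM (SD, n = 2), Alas2 at 12.8 ± 7.97, Epor at 2.15 ± 0.825, Klf1 at 0.412 ± 0.270, Hemgn at 0.262 ± 0.370 and Gata1 at 0.258 ± 0.288. Tfrc lay above Alas2 within each ureter library, at 13.8 against 7.15 TPM in KO and 44.1 against 18.4 in WT, although their pooled ranges overlapped. Klf1, Hemgn and Gata1 overlapped, and their order differed between the ureter libraries. Epb42 was listed at 0 in both ureter libraries.

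**Figure D1:**
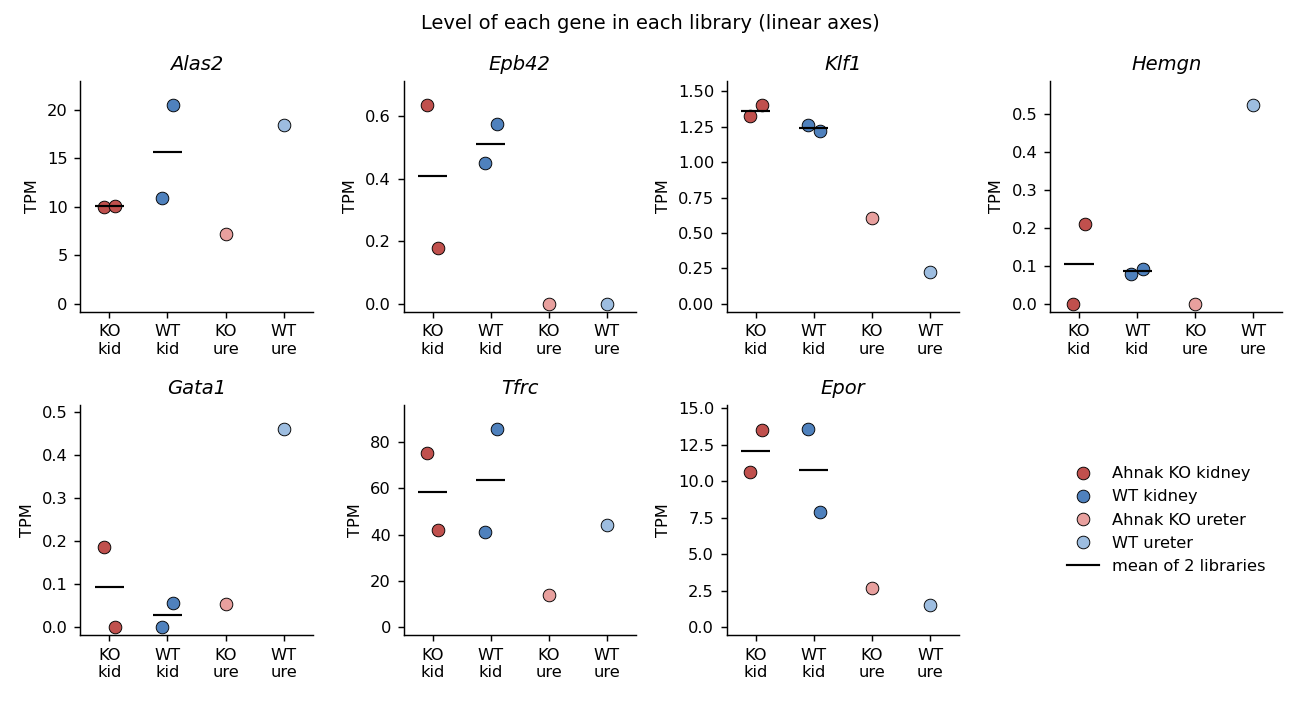
TPM of the 7 genes in each library, on linear axes that differ between genes, with a bar at the mean of the 2 libraries where a group has 2. Epor is at 7.89 to 13.6 TPM in kidneys and at 2.73 and 1.57 in ureters, Epb42 is at 0 in both ureters, and within WT kidney Alas2 spans 10.9 to 20.5 TPM and Tfrc 41.0 to 85.8 TPM.

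The first comparison was Ahnak KO against WT kidney, tested with edgeR's quasi-likelihood test and Benjamini-Hochberg adjustment. None of the members was called. Of the 7, 5 passed the filter on low counts, and 0 of the 5 passed either an adjusted or an unadjusted p under 0.05, beside 0.0121% of the 16481 genes tested that passed the adjusted threshold (2 genes). DESeq2's Wald test also called 0 of the 5, beside 44 of all genes tested. With limma on log2(FPKM + 1) or log2(FPKM + 0.1), 0 of the 5 passed, but so did 0 of all genes. The study's methods call the replicates biological but do not give the mice behind each library, so these p-values measure the spread between the libraries.

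Among the receptors, Epor counts were 548 and 709 in the KO kidneys and 822 and 409 in the WT kidneys. In CPM with edgeR's TMM scaling, these were 9.04 and 12.0 against 11.6 and 6.71. The genotypes overlapped, and WT kidney 2 was the lowest of the 4. The log2 fold change was 0.20 ± 0.307 (SE; adjusted p = 1.0 from edgeR). The 6 endothelial markers summed to 725, 692, 694 and 595 CPM in the same order, and the WT kidney low in Epor was also the lowest here. KO kidney 1, with the highest sum, lay below KO kidney 2 and WT kidney 1 in Epor. The part of this in the Epor values was not tested.

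Tfrc was at 171 and 99.8 CPM in KO kidneys and at 93.7 and 196 in WT kidneys. Both genotypes thus held a high and a low library, and they overlapped. Its difference between genotypes, on the log2 scale, was -0.093 ± 0.384 (SE; adjusted p = 1.0 from edgeR). Within a genotype, Tfrc TPM differed 1.79-fold between the KO kidneys and 2.09-fold between the WT kidneys. The 6 proliferation markers summed to 1710 and 1533 CPM in KO kidneys and to 1580 and 1779 CPM in WT kidneys, so the same 2 libraries were the higher ones. The part of proliferation in the Tfrc values was not tested.

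The transcription factors were low. Klf1 had 58 and 62 counts in KO kidneys and 64 and 53 in WT kidneys, or 0.957 and 1.05 CPM against 0.901 and 0.870. Both KO libraries lay above both WT libraries, as they did for 12.7% of the genes tested, but the log2 fold change of 0.18 was small (0.510 standard error; adjusted p = 1.0 from edgeR). Gata1 had 11 and 0 counts in KO kidneys and 0 and 4 in WT kidneys. Each genotype held a library at 0, and Gata1 did not pass the filter and was not tested. At this level a listed 0 was common. Of 1202 genes with 5 to 15 counts in KO kidney 2, 52.8% were listed at 0 in KO kidney 1, and the share the other way was 13.3% of 796 genes.

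Alas2 gave the largest of the 5 estimates. It had 558 and 572 counts in KO kidneys and 707 and 1145 in WT kidneys, or 9.20 and 9.68 CPM against 9.96 and 18.8. The KO libraries lay below both WT libraries, as they did for 13.5% of the genes tested. The log2 fold change was -0.60 ± 0.312 (SE; adjusted p = 1.0 from edgeR), and without WT kidney 2 it was -0.074. The estimate thus rested on that library, while the other 3 lay within 9.20 to 9.96 CPM. The globins moved beside it: the 6 adult alpha and beta copies, summed so that exchange between copies cancels, gave 1085 and 966 CPM in KO kidneys and 935 and 1842 in WT kidneys. Per 1000 CPM of summed adult globin, Alas2 was at 8.48, 10.02, 10.6 and 10.2 CPM in these 4 libraries. WT kidney 2 was then no longer set apart, but the KO libraries still lay below both WT libraries. The part of blood content in the Alas2 values was not tested.

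Epb42, the membrane skeleton gene, had 70 and 20 counts in KO kidneys and 59 and 64 in WT kidneys, or 1.15 and 0.339 CPM against 0.831 and 1.05. The KO libraries lay above and below both WT libraries. The log2 fold change was -0.33 ± 0.725 (SE; adjusted p = 1.0 from edgeR). Hemgn had 0 and 14 counts in KO kidneys and 7 in each WT kidney, and was not tested. The counts of Hemgn are as low as those of Gata1, and the same limit holds.

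The second comparison set ureter against kidney over all 6 libraries, with genotype as a further term. Of the 7 members, all of which were tested here, Epor and Epb42 were lower in ureter and 0 were higher, beside 22.3% of 17557 genes lower and 20.3% higher. Hemgn, at 0 to 36 counts, and Gata1, at 0 to 26, passed a filter that a single library can satisfy, so their being tested is no result. DESeq2 called the same 2 genes, and limma on FPKM called Klf1 as well. Over all genes, edgeR called 3912 lower in ureter and DESeq2 4680. The limma fits called 6299 lower on log2(FPKM + 1) and 6508 on log2(FPKM + 0.1). The median log2 fold change of all genes tested was -0.079 by edgeR.

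Epor was at 9.04, 12.0, 11.6 and 6.71 CPM in the kidneys, against 3.27 in KO ureter and 1.65 in WT ureter. Every kidney library lay above both ureters. The log2 fold change of ureter over kidney was -2.05 (0.360 standard error; adjusted p = 0.00493 from edgeR), and the adjusted p stayed between 6.3e-07 and 0.0282 in all the alternatives run. Endothelial markers summed to 576 and 602 CPM in ureters against 595 to 725 in kidneys, and 2 of the 6 were called lower in ureter and 1 higher. Tfrc, at 44.1 CPM in KO ureter and 124 in WT ureter against 93.7 to 196 in kidneys, overlapped between tissues. Its tissue difference, on the log2 scale, was -0.85 ± 0.448 (SE; adjusted p = 0.170 from edgeR), and single libraries moved it. It was -1.19 (adjusted p = 0.0408) without WT kidney 1, -0.22 (adjusted p = 0.757) without KO ureter and -1.61 (adjusted p = 0.0560) without WT ureter. Proliferation markers summed to 762 CPM in KO ureter and 878 in WT ureter, below the 1533 to 1779 of the kidneys, and 5 of the 6 were called lower in ureter. Their part in the Tfrc values was not tested.

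Epb42 was at 0 in both ureters. With 3 counts in a library taken as the limit that a 0 allows, for counting error only, the kidney mean of 0.844 CPM was at least 8.43-fold higher than the higher of the ureter limits, and the lowest kidney library at least 3.38-fold higher. The adjusted p was 0.0116 from edgeR, and 8.96e-05 to 0.0491 over the alternatives that tested it. The table's zeros bear on this call: of 423 genes with 20 to 70 counts in all 4 kidney libraries, the range that Epb42 spans, 14.2% (95% Wilson interval 11.2 to 17.8) were at 0 in both ureters. Klf1 lay at 0.634 and 0.194 CPM in KO and WT ureter, below every kidney library, with a log2 fold change of -1.34 ± 0.705 (SE; adjusted p = 0.172 from edgeR). Without WT ureter it was -0.65 (adjusted p = 0.503) and without KO ureter -2.17 (adjusted p = 0.101), while limma on log2(FPKM + 1) and log2(FPKM + 0.1) gave adjusted p-values of 0.00915 and 0.0150.

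Alas2 overlapped between tissues, at 9.01 CPM in KO ureter and 20.8 in WT ureter. The log2 fold change was 0.25 ± 0.288 (SE; adjusted p = 0.512 from edgeR) and fell to -0.029 when counts were scaled by library size alone. Gata1 had 3 counts in KO ureter and 26 in WT ureter, with a log2 fold change of 2.38 ± 2.04 (SE; adjusted p = 0.383 from edgeR). Hemgn had 0 and 36 counts, with a log2 fold change of 1.0 ± 2.23 (SE; adjusted p = 0.742 from edgeR). In CPM the WT ureter library was the highest of the 6 for Alas2, Gata1 and Hemgn, although by TPM Alas2 was higher in WT kidney 2 (20.5 TPM against 18.4). Without WT ureter the log2 fold changes were -0.058, 0.14 and -5.76, the last a fitted value against a library at 0 and no bound.

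**Figure D2:**
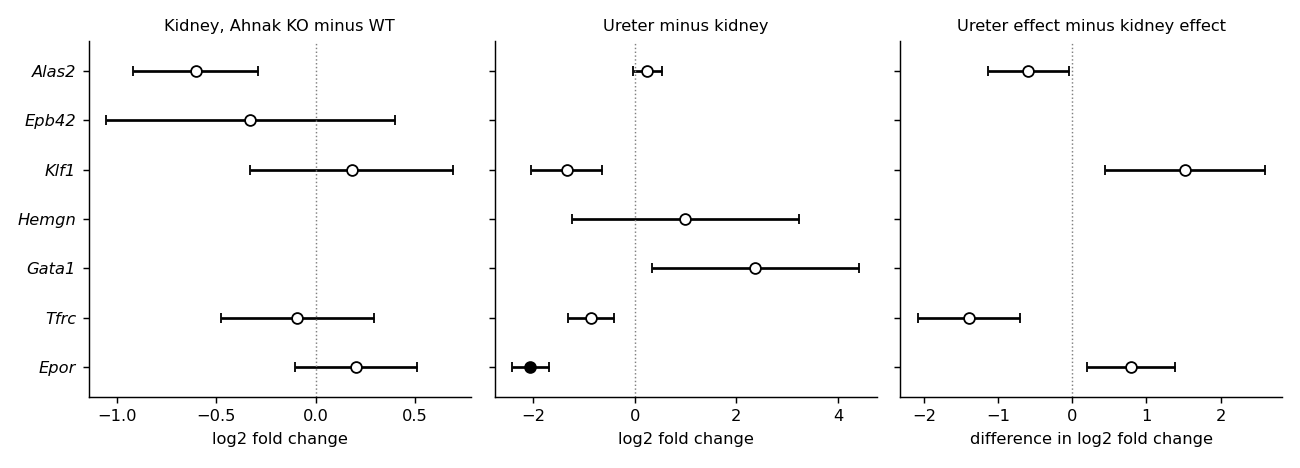
Fitted log2 fold changes (points) with standard errors (bars) for KO minus WT kidney, ureter minus kidney, and the ureter genotype effect minus the kidney effect, filled where the adjusted p is under 0.05. Epb42 is left out of both panels that use ureter, where it is at 0, and Hemgn and Gata1 of both genotype panels. Their wide bars in ureter minus kidney rest on libraries of which some are at 0, and Epor in ureter minus kidney, at -2.05, is the filled point.

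In ureter each genotype was a single library, so the ratios have counting intervals and no test between mice. Of the 6 members with 10 or more counts in either library, 3 were lower in KO ureter by more than 2-fold on the scale of log2(CPM + 0.5) and 0 were higher, beside 5.78% of 16117 genes lower and 4.44% higher. Hemgn and Gata1 reached 10 counts only in WT ureter, so Hemgn, which is 1 of the 3, had to be lower in KO to be counted. Alas2, with 270 counts in KO ureter and 1068 in WT ureter, was 2.29-fold higher in WT (95% exact interval 2.0 to 2.63). Tfrc, with 1320 and 6389 counts, was 2.8-fold higher in WT (2.64 to 2.98). Hemgn had 0 and 36 counts, and the exact interval of its ratio began at 5.37-fold higher in WT, with no upper limit. Gata1, with 3 and 26 counts, was 5.02-fold higher in WT (1.54 to 25.9), although its log2 ratio with the pseudocount was -0.68. Klf1 and Epor went the other way. Klf1 had 19 counts in KO ureter and 10 in WT ureter, a ratio of KO to WT of 3.28 (1.45 to 7.89), and Epor had 98 and 85 counts, a ratio of 1.99 (1.47 to 2.69). Of 732 genes with 20 to 40 counts in WT ureter, the range of Gata1 and Hemgn, 32.2% (95% Wilson interval 29.0 to 35.7) were at 0 in KO ureter.

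**Figure D3:**
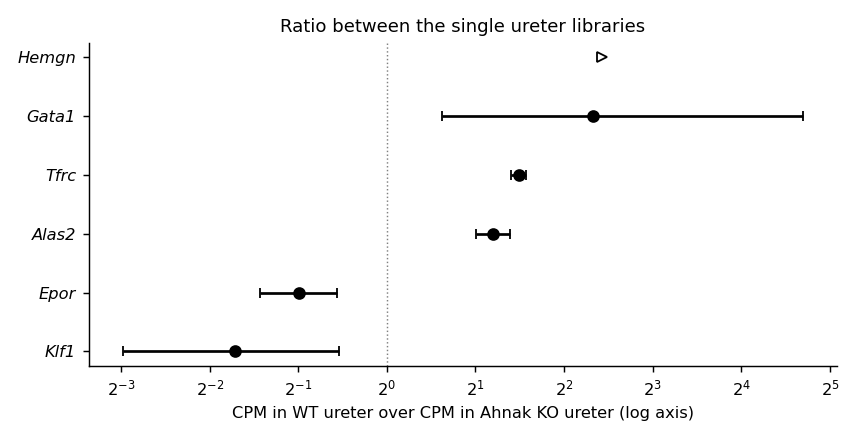
Ratio of CPM in WT ureter to CPM in Ahnak KO ureter (log axis) with 95% exact intervals for counting error, from 1 library each. Alas2 at 2.29, Tfrc at 2.8 and Gata1 at 5.02 lie to the right of 1, Epor and Klf1 to the left, and the open triangle is the lower end, 5.37, of the exact interval for Hemgn, which has no upper end.

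Whether the genotype effect differed between the tissues was tested in 1 fit over the 4 groups, in which the single ureter libraries are assumed to vary like the kidney libraries. None of the 7 members was called by edgeR, and 0 passed its unadjusted p under 0.05. DESeq2 also called 0, but it gave no adjusted p for Hemgn and Gata1. Among all 17557 genes, 0.108% passed edgeR's adjusted threshold and 2174 genes the unadjusted one. The ureter effect minus the kidney effect was -1.39 for Tfrc (standard error 0.691, adjusted p = 0.483), -0.59 for Alas2 (0.548, adjusted p = 0.741), 1.52 for Klf1 (1.08, adjusted p = 0.638) and 0.79 for Epor (0.591, adjusted p = 0.659), all from edgeR. For Epb42, Hemgn and Gata1 the value depends on libraries at 0 and is not given.

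Blood and other cells of the marrow lineages were followed beside these genes. Summed adult globin was 935 to 1842 CPM in kidneys, 1706 in KO ureter and 1746 in WT ureter. The 2 ureters thus differed 1.02-fold in globin and 2.29-fold in Alas2, and Alas2 per 1000 CPM of globin was 5.28 in KO ureter and 11.9 in WT ureter, on either side of the 8.48 to 10.6 of the kidneys. Gata1 also acts in mast cells and megakaryocytes. The 7 mast cell markers summed to 7.33 to 9.83 CPM in kidneys, 333 in KO ureter and 221 in WT ureter, with 1 to 3 of the 7 at 0 in each kidney and 0 of the 7 in the ureters. Of the 7, 5 were called higher in ureter by edgeR and 1 lower. Cpa3, a mast cell protease, had 0.561 to 1.31 CPM in kidneys and 154 and 70.7 CPM in KO and WT ureter. Ms4a2, a chain of the IgE receptor, went the other way, at 5.50 to 7.26 CPM in kidneys and 0.934 and 0.817 in ureters, and made up most of the kidney sum. The 9 megakaryocyte and platelet markers summed to 16.4 to 19.6 CPM in kidneys, 89.9 in KO ureter and 69.4 in WT ureter, with 2 and 5 of the 9 at 0 in the ureters. Gata1 was higher in WT ureter while both sums were higher in KO ureter, but single markers differed. Pf4, a platelet chemokine, gave 67.9 CPM of the megakaryocyte sum in KO ureter and 29.8 in WT ureter. Higher in WT ureter, as Gata1 was, were Gp1bb (15.1 CPM in KO and 33.0 in WT), Itga2b (3.57 and 6.03), Mcpt4 (20.7 and 35.3) and Mrgprb1 (0.267 and 1.52). The part of mast cells and megakaryocytes in the Gata1 values was not tested. Neutrophil markers summed to 12.6 to 29.5 CPM in kidneys, 48.7 in KO ureter and 164 in WT ureter, and macrophage markers to 78.7 to 118 CPM, 252 and 156. Liver markers, from an organ that makes red cells at this age, summed to 108 to 130 CPM in kidneys, 131 in KO ureter and 165 in WT ureter, but their members differed. Afp was at 72.0 to 88.2 CPM in kidneys and 9.81 and 21.1 in KO and WT ureter, and Alb at 0.437 to 2.27 CPM in kidneys and 68.0 and 63.9 in ureters.

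**Figure D4:**
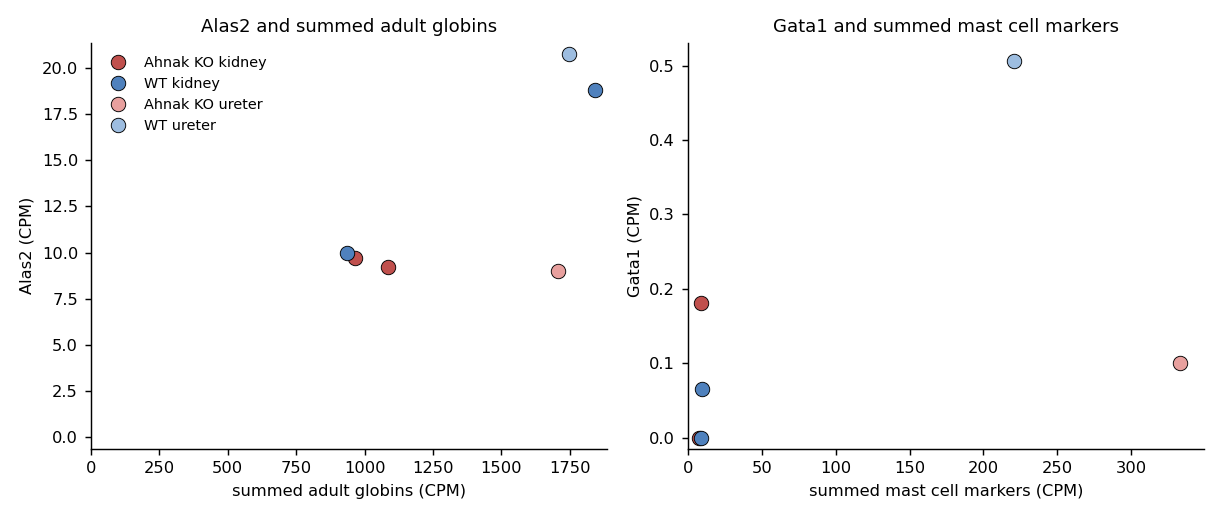
Left, Alas2 against the summed adult globins, and right, Gata1 against the summed mast cell markers, in CPM, with 1 point for each of the 6 libraries. KO and WT ureter lie at 1706 and 1746 CPM of globin but at 9.01 and 20.8 CPM of Alas2, and the mast cell sums of 333 and 221 CPM stand far above the 7.33 to 9.83 CPM of the kidneys while Gata1 is high only in WT ureter.

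Other genes of the erythroid programme were described by list, and none of the 6 lists held a gene called in the kidney genotype comparison. This was 0 of 10 for heme synthesis, 0 of 14 for the red cell membrane, 0 of 7 for erythroid transcription factors, 0 of 7 for erythropoietin signalling, 0 of 8 for late erythroid genes and 0 of 9 for iron uptake and storage, by edgeR, DESeq2 and limma alike. Over all genes tested, edgeR called only 2, DESeq2 44 and limma 0. At an unadjusted p under 0.05 from edgeR, 1 gene passed, Kitl (the ligand of the Kit receptor), at a log2 fold change of 0.30, beside 227 of all 16481 genes. The list medians lay between -0.098 and 0.045, with all genes at -0.0041.

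Between ureter and kidney most lists held genes called in both directions, and their counts are to be read beside the 22.3% of all genes called lower in ureter and the 20.3% called higher. In heme synthesis, 1 of 10 was lower and 2 were higher in ureter, with a list median of -0.068. Fech, which inserts the iron that completes heme, rose by 0.78 on the log2 scale (adjusted p = 0.000913 from edgeR). Cpox rose by 0.67 (adjusted p = 0.0267 from edgeR), while Urod fell by 0.43 (adjusted p = 0.0322 from edgeR). In the red cell membrane list, 2 of 17 were lower and 3 higher, with a median of 0.048. Slc4a1, the band 3 anion exchanger that is also made by kidney intercalated cells, fell by 1.94 (adjusted p = 0.0119) and Kel, a blood group protein with 112 to 283 counts in kidneys and 9 and 0 in ureters, by 4.66 (adjusted p = 0.0220). Xk, a membrane protein that pairs with Kel, rose by 3.78 (adjusted p = 3.7e-05), Ank1, the red cell ankyrin, by 2.57 (adjusted p = 0.000560) and Tmod1, a tropomodulin also found in muscle, by 0.89 (adjusted p = 0.00373). Rhag and Tspo2 were at 0 in both ureters.

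Of 7 transcription factors tested, 3 were lower in ureter and 0 higher, with a median of -0.40. Myb, a factor of early progenitors, fell by 2.19 (adjusted p = 0.000820 from edgeR), Lmo2, a partner of GATA1 that endothelial cells also make, by 0.89 (adjusted p = 0.0207), and Ldb1, which joins these proteins, by 0.40 (adjusted p = 0.0242). Gfi1b was listed at 0 in every library. In erythropoietin signalling, 1 of 7 was lower and 1 higher, with a median of 0.20. Kit, a receptor of progenitors and mast cells, fell by 2.13 (adjusted p = 0.00141) and Kitl rose by 0.76 (adjusted p = 0.00138). Epo, the hormone itself, was listed at 0.614 TPM in WT kidney 2 and at 0 in the other 5 libraries.

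Of 8 late erythroid genes, 1 was lower and 1 higher, with a median of -0.22. Bpgm, an enzyme of red cell glycolysis, fell by 0.37 (adjusted p = 0.0463 from edgeR) and Mpp1, a membrane scaffold protein, rose by 0.62 (adjusted p = 0.00640). Of 10 iron genes, 3 were lower and 3 higher, with a median of 0.13. Trf, the transferrin that TFRC takes up, rose by 4.86 (adjusted p = 1.1e-05), from 9.08 to 12.4 TPM in kidneys to 291 and 202 TPM in ureters. Steap3, an iron reductase of endosomes, rose by 2.97 (adjusted p = 0.000340) and Fth1, the ferritin heavy chain, by 0.81 (adjusted p = 0.000800). Slc11a2, an iron importer, fell by 1.81 (adjusted p = 0.00105), Slc40a1, the iron exporter ferroportin, by 1.06 (adjusted p = 0.00342) and Ireb2, an iron-sensing regulator, by 0.33 (adjusted p = 0.0407).

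**Figure D5:**
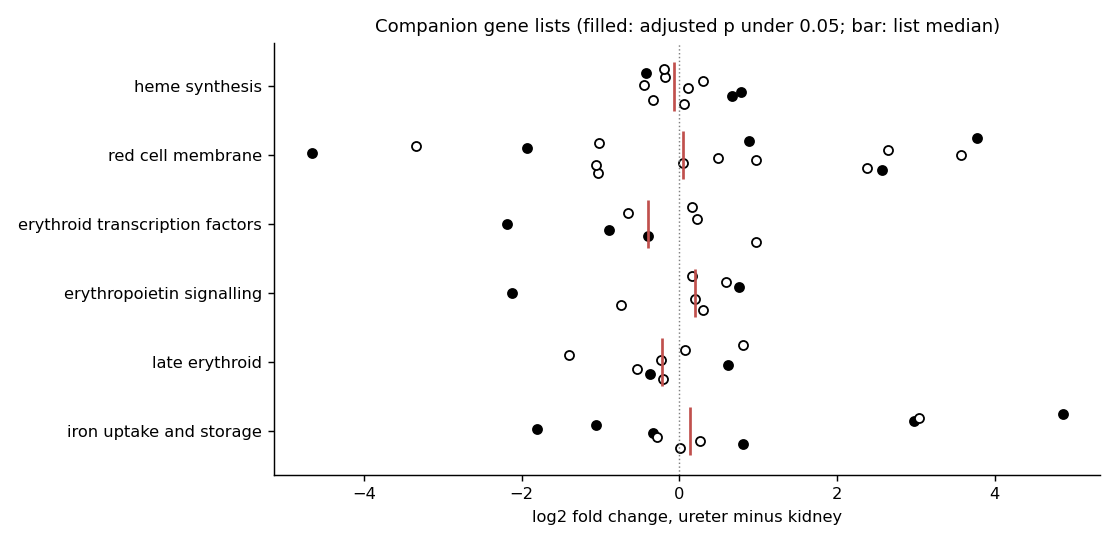
Log2 fold change of ureter minus kidney for the genes tested in each list, filled where edgeR's adjusted p is under 0.05, with a bar at the list median. The medians lie between -0.40 and 0.20 with genes on both sides of 0 in each list. Rhag and Tspo2, at 0 in both ureters, are not drawn but count in the median of the red cell membrane list.

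In ureter, 2 of 10 heme synthesis genes were lower in KO by more than 2-fold and 0 higher, beside 5.78% and 4.44% of all genes. These were Slc25a37 (mitoferrin, which carries iron into mitochondria), with a log2 ratio of -1.08, and Ppox, at -1.04. The median of the list was -0.24, with all genes at -0.021. The transcription factors had 0 of 7 past 2-fold and a median of -0.33, with all 7 ratios below 0. The medians of the other lists were above 0, at 0.052 for the red cell membrane, 0.31 for erythropoietin signalling, 0.12 for late erythroid genes (7 of 8 above 0) and 0.21 for iron uptake and storage (6 of 10 above 0). In the red cell membrane list 2 of 13 were lower (Dmtn at -1.16 and Slc4a1 at -1.05) and 1 higher (Sptb at 1.29). Of the erythropoietin signalling genes, 0 of 7 were lower and 2 higher, Kit at 1.07 and Stat5a at 1.06. The late erythroid and iron lists held 0 genes past 2-fold. None of these lists held a gene called by edgeR in the genotype by tissue fit, while DESeq2 called 1, Ppox.

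Profiles of the restricted members (Alas2, Epb42, Klf1, Hemgn and Gata1) across the libraries were set against their common mean. The scale was log2(CPM + 0.5), centred on the mean over the 6 libraries. Each member differed from the common mean profile by a root mean square of 0.354 (Gata1) to 0.628 (Epb42). Hemgn and Gata1 had few counts, and Epb42 was at 0 in both ureters. Counting error and the pseudocount enter these distances, so they cannot decide whether the members share a profile. Alas2 and Klf1 went apart in WT ureter, at 0.75 and -0.82, from 1068 and 10 counts. Among 17550 other genes, the 10 most like that mean profile were 1700030K09Rik (0.0334), Ncbp2, Rfc5, Srrm1, Pfkm, Cdk2ap2, Tars2, Ahsa1, Prpf4b and Rufy2 (0.0542). The mean profile was lowest in KO ureter, at -0.38, and highest in WT kidney 2, at 0.25. Over 6 libraries and so many candidates, likeness to a mean profile describes these libraries only.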

How the data were processed

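For each of 24532 genes and 6 libraries, the authors deposited an estimated (expected) count as a whole number, without normalization, together with FPKM and TPM, which they normalized for length and depth. Sources on how these were made differ. The study's methods name Cutadapt, STAR, Cufflinks and GRCm39, while the submitters' processing notes name Trimmomatic 0.38, HISAT2 2.1.0, StringTie 1.3.4b and mm10, and the table is named for mm10. Since counts are estimates, a listed 0 does not prove that reads were lacking. Gene numbers matched RefSeq GRCm38.p6 for 24462 genes, and 27 symbols turned into dates were restored.

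The tests had been planned for read counts and were run on the deposited estimated counts: edgeR 4.0.16 (TMM, filterByExpr, quasi-likelihood test, Benjamini-Hochberg adjustment over all genes tested, threshold 0.05) in R 4.3.3, for kidney genotype (4 libraries), ureter against kidney (6 libraries, genotype as covariate) and their interaction. Standard errors were approximated from the size of the log2 fold change and the F statistic (size over root F). The ureter libraries were compared by log2(CPM + 0.5) with TMM factors, with exact intervals for counting error. A floor of 3 counts was 0.0454 to 0.0824 CPM by total count. With TMM scaling, as used for Epb42, it was 0.100 CPM in KO ureter and 0.0583 in WT ureter. The fits were tested on simulated data. Alternatives used DESeq2 1.42.0, limma 3.58.1, other scalings, filters and pseudocounts, and libraries left out. Named genes were the members, each gene of a list with an adjusted p under 0.05, in ureter those past 2-fold, and the 10 genes nearest in profile, while Kitl in kidney genotype, Gfi1b, Rhag, Tspo2, Epo and single marker genes were chosen after seeing their values. The members and lists were chosen with earlier results of these data known. Values were computed with Python 3.11.15.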

Additional observations from a re-analysis of the deposited data

Results flagged for a closer look

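Of the 7 genes with a row, 1 had a kidney library set apart from the other 3. Alas2 reached 18.8 CPM in WT kidney 2, against 9.20 to 9.96 CPM in the other kidney libraries, and this gap took a share of 0.921 of the range over the 4 libraries, above Dixon's 95% critical value of 0.829. Chance flags about 1 in 20 groups, and 7 genes were looked at. Summed adult globin was also highest in that library, at 1842 CPM against 935 to 1085 CPM.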

How the results depend on the processing

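The 0 members called in kidney genotype and in the interaction held in every alternative run, although some alternatives did not test every member. Over all genes, the 2 kidney calls became 1 with at least 10 counts in every library, 44 with DESeq2's Wald test, 0 with limma on log2(FPKM + 1) or log2(FPKM + 0.1), and 3 to 87 when 1 library was left out (87 without KO kidney 2). The replicate block gave 0 calls and a crossed replicate block, added after seeing the data, gave 1. Replicate numbers share no stated litter or day, and deviations of the kidneys numbered 1 correlated at r = -0.193 over 16481 genes. Interaction calls went from 19 to 476 with DESeq2 and 4 to 270 with 1 library left out (4 without WT kidney 1). Tissue members lower went from 2 to 1 with at least 10 counts in every library, where Epb42 was not tested. The split of tissue calls, 3912 lower and 3562 higher, became 6050 and 2354 with library size alone, 6299 and 2513 with limma on log2(FPKM + 1), and 6508 and 2478 on log2(FPKM + 0.1), with medians of all genes of -0.37, -0.22 and -0.35 in place of -0.079. Interaction calls with library size alone split into 17 lower and 9 higher, with a median of -0.17. In ureter, genes past 2-fold went from 1646 to 2775 with a pseudocount of 0.1, 2654 with FPKM and 2936 with TPM, members lower from 3 to 4 with each of these, and members higher from 0 to 1 (Klf1) with the pseudocount of 0.1 and with TPM. The calls below 2-fold in KO ureter made up 56.6% of genes past it, against 70.7% with library size alone, 69.3% with FPKM and 68.2% with TPM. With 1 library left out, kidney genotype ran from -1.47 to 0.30 for Epb42, -0.54 to 0.54 for Tfrc and -0.14 to 0.65 for Epor, and tissue from -0.058 to 0.53 for Alas2 and -5.76 to 2.69 for Hemgn. The Gata1 interaction ran from -7.64 to 1.57. Tissue for Alas2 also turned to -0.029 with library size alone and -0.0067 with limma on log2(FPKM + 0.1). The causes were not tested.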
